A study of Homo sapiens with 12 samples.

Results

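Glycolysis and the response to low oxygen were followed through 10 genes in MIA PaCa-2 cells, an established line from a pancreatic carcinoma, chosen by symbol from the 63086 genes of the deposited expression table: SLC2A1, HK2, PFKFB3, PFKFB4, LDHA, PGK1, HIF1A, NDRG1, VEGFA and CA9. RNA was sequenced from 4 lines with 3 libraries each. WT was the unmodified line, and CRISPR Control was a single line that had gone through CRISPR-Cas9 editing and kept only a silent point mutation. TIMP1 KO 1 and TIMP1 KO 2, both clones, were edited in exon 4 of TIMP1, the gene of a secreted inhibitor of metalloproteinases, and are called KO 1 and KO 2 below. All lines grew in RPMI medium with fetal calf serum at the same CO2 setting, and the sources used here name no change of oxygen. KO 1 and KO 2 together are called the deficient lines, WT and CRISPR Control the competent lines. Because each clone is 1 line, a difference between lines may belong to the clone and not to TIMP1, and with 2 lines against 2 an exact permutation test over lines cannot give a two-sided p below 0.333.

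Glycolysis turns glucose into pyruvate and, when pyruvate is reduced, into lactate. SLC2A1 brings glucose into the cell, HK2 traps it as glucose 6-phosphate, PFKFB3 and PFKFB4 set the level of the metabolite that activates phosphofructokinase, PGK1 makes ATP, and LDHA makes lactate. In low oxygen, hydroxylases no longer mark the alpha subunits of hypoxia-inducible factor (HIF) for the VHL ubiquitin ligase, and the HIF dimer then induces most of these genes together with VEGFA, CA9 and NDRG1. HIF1A protein is regulated mainly by its breakdown, so that the HIF1A transcript does not report the activity of the factor.

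Values are normalised counts, the reads of a gene after division by the scaling factor of its library. Libraries held 26908701 to 36093563 reads in genes. Differences are log2 fold changes of log2(normalised count + 1), tested two-sided with limma over the 15987 genes with a mean of at least 10, and "adjusted p" is the Benjamini-Hochberg value over those genes with a threshold of 0.05. TIMP1 itself read 3837, 3290.2 and 3532 in WT, 2285, 2826 and 2959 in the CRISPR Control line, 1562, 1624 and 1613 in KO 1, then 1136, 1192 and 1155 in KO 2 in replicates 1, 2 and 3, so the transcript persisted in both clones at 45% and 32.7% of the WT mean, and CRISPR Control lay at 75.7%. KRT8, KRT18 and VIM, which mark a carcinoma line of this kind, summed to 247346 to 266299 in WT, 100571 to 127122 in the CRISPR Control line, 282342 to 286425 in KO 1, then 201369 to 209752 in KO 2. CRISPR Control therefore stood apart in these markers as it did in many of the genes below, and the part of that shift in the results was not tested. Summed over 18 markers of other cell types the level was 15.0 to 58.5 in every library. Differences in cell number cannot be told apart from differences in RNA per cell in such bulk samples.

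**Figure D1:**
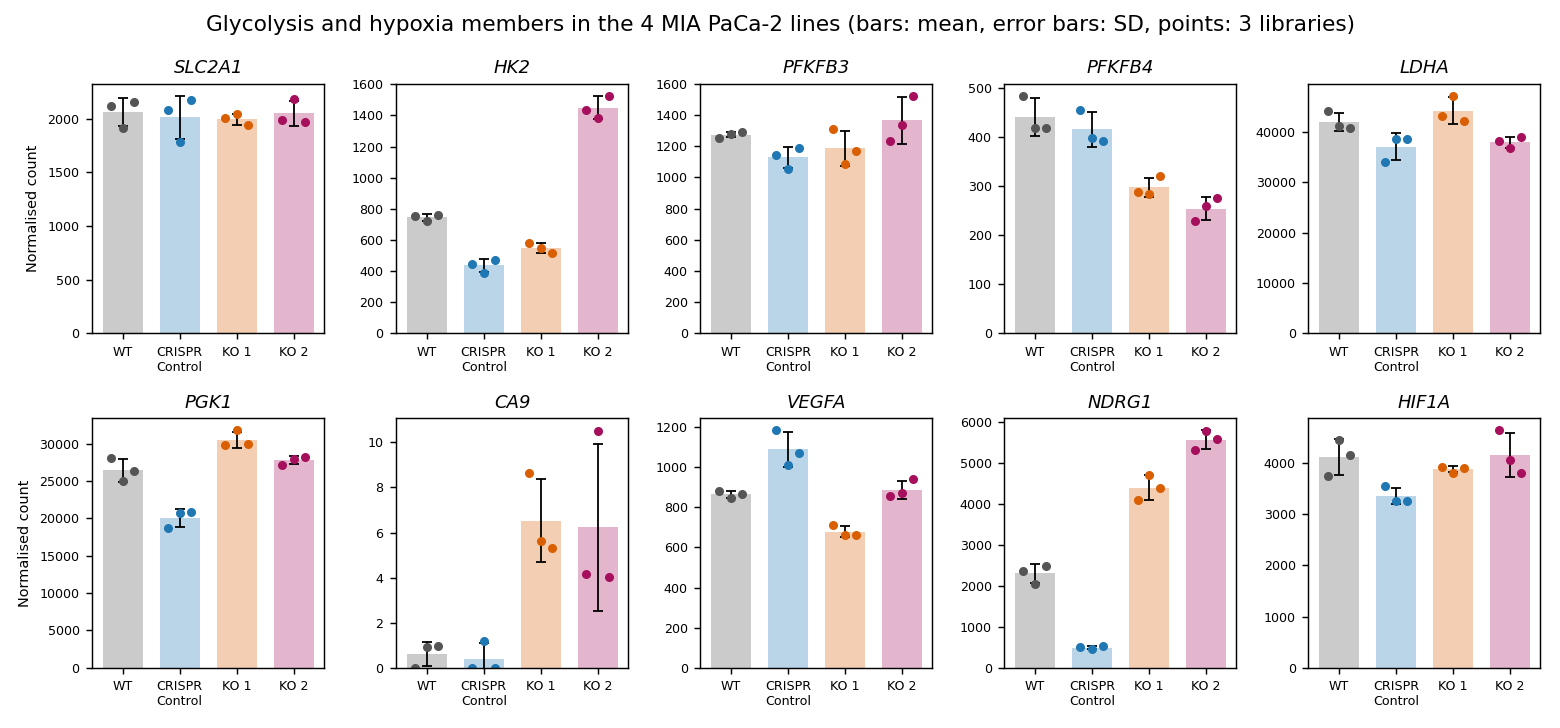
Normalised counts (vertical axes, linear, from 0) of the 10 genes in the 4 lines (horizontal axes). Bars are means of 3 libraries, error bars are SD and points are single libraries. NDRG1 climbs from 494 in CRISPR Control to 5567 in KO 2, SLC2A1 stays between 1996 and 2067, and CA9 does not exceed 10.5 in any library.

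CA9 had a mean under 10 and was not tested, which left 9 tested members. The members did not move as a group in the clones. Against WT, KO 1 had 2 higher members (PGK1 and NDRG1) and 3 lower ones (HK2, PFKFB4 and VEGFA), while 18.0% of all tested genes were called higher and 17.5% lower in that comparison. KO 2 had 2 higher members (HK2 and NDRG1) and 1 lower one (PFKFB4) against WT, where 27.1% of all tested genes were higher and 27.9% lower. The 2 clones thus shared NDRG1 and PFKFB4 as calls against WT. These shares of members, 22.2% higher and 33.3% lower in KO 1 and 22.2% and 11.1% in KO 2, rest on 9 genes, of which 1 gene makes 11.1%.

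CRISPR Control was called against WT in 6 members, KO 1 in 5 and KO 2 in 3, and with 1 library left out in turn these counts were 5 to 6, 4 to 5 and 3. The call of LDHA in CRISPR Control, near the threshold, makes the difference between 6 and 5. CRISPR Control had 1 higher member (VEGFA) and 5 lower ones (HK2, LDHA, PGK1, NDRG1 and HIF1A), beside 27.2% of all tested genes higher and 26.3% lower. Against CRISPR Control, KO 1 had 5 members higher and 2 lower (background 31.7% and 31.3%), and KO 2 also had 5 higher and 2 lower (background 33.3% and 34.4%). KO 2 exceeded KO 1 in 3 members, HK2, VEGFA and NDRG1, and lay below it in 1, LDHA, beside 18.1% and 20.1% of all tested genes. The clones share their WT and CRISPR Control libraries in these comparisons, so the counts are not independent.

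The mean of the deficient lines lay above the mean of the competent lines in 3 members, HK2, PGK1 and NDRG1, and below it in 2, PFKFB4 and VEGFA, where 32.9% of all tested genes were higher and 33.0% lower. The median log2 fold change of the 9 tested members was 0.08, and that of all tested genes was 0.002. All 6 deficient libraries lay above all 6 competent ones for NDRG1 and below them for PFKFB4, so 2 of 9 members were separated, and 24.7% of all tested genes were. Because CRISPR Control and WT differed so widely, several of these averages depend on which competent line is taken, and the pairs of lines are given for each gene below.

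**Figure D2:**
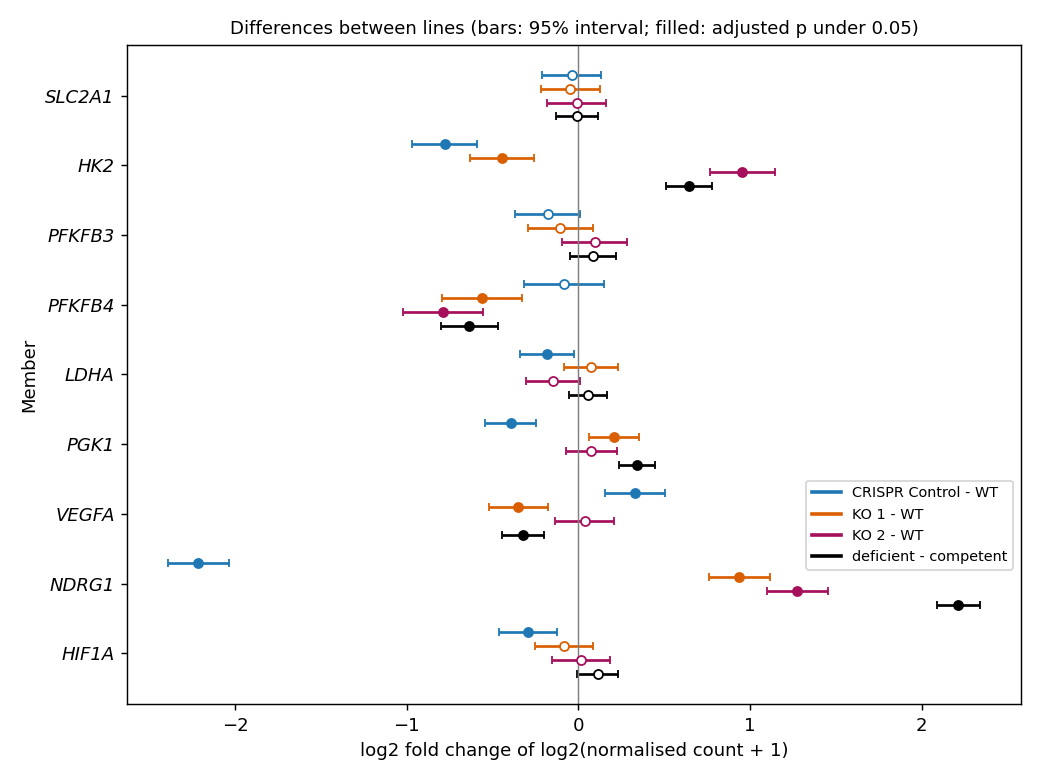
Log2 fold changes (horizontal axis) of the 9 tested members (vertical axis) for CRISPR Control, KO 1 and KO 2 against WT and for deficient against competent lines. Bars are 95% intervals and filled points have an adjusted p under 0.05. Only PFKFB4 and NDRG1 have filled points on the same side in both clones, and HK2 has filled points on opposite sides.

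The transcript of SLC2A1, the main glucose transporter of most cultured carcinoma cells, was not called different between any lines. SLC2A1 (chromosome 1, 42925353 to 42958893, minus strand, GRCh38 here and below) read 2120.0, 1917 and 2162 in WT, 2084, 1789 and 2177 in the CRISPR Control line, 2005, 2042 and 1942 in KO 1, then 1991, 2189 and 1976 in KO 2. The lines overlapped throughout. Its log2 fold change was -0.05 (adjusted p 0.69, SE 0.08) in KO 1 against WT and -0.01 (adjusted p 0.929, SE 0.08) in KO 2 against WT, with 95% intervals of -0.22 to 0.12 and -0.18 to 0.16, by limma. The highest line mean was 1.04 times the lowest, and no neighbours in the order of the lines were called different.

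HK2, the inducible hexokinase that commits glucose to the cell, went in opposite directions in the clones. HK2 (chromosome 2, 74834127 to 74893359, plus strand) read 755, 721 and 761 in WT, 447, 389 and 468 in the CRISPR Control line, 578, 549 and 515 in KO 1, then 1435, 1383 and 1529 in KO 2. All KO 2 libraries lay above every other library, and the KO 1 libraries lay between those of CRISPR Control and WT without overlapping either. KO 1 was 1.36-fold below WT, a log2 fold change of -0.45 (adjusted p 0.000699, SE 0.09), and KO 2 was 1.94-fold above it, 0.96 (adjusted p 4.31e-08, SE 0.09), by limma. CRISPR Control was lower than WT by 1.72-fold, -0.78 (adjusted p 7.14e-07, SE 0.09). Each neighbouring pair in the order CRISPR Control, KO 1, WT, KO 2 differed. The average of both clones was 0.25 above WT alone and 1.04 above CRISPR Control alone. The called difference between deficient and competent lines, 0.65 (adjusted p 4.21e-08) by limma, therefore averaged a clone below WT with one above it.

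The bifunctional enzymes that make and remove fructose 2,6-bisphosphate, the activator of phosphofructokinase, had different calls. PFKFB4 (chromosome 3, 48517684 to 48562015, minus strand) read 486, 420.0 and 418 in WT, 457, 399.7 and 392 in the CRISPR Control line, 288, 285 and 321 in KO 1, then 229, 259.5 and 275 in KO 2. Every library of either clone lay below every competent library. KO 1 was lower than WT by 1.48-fold, -0.56 (adjusted p 0.000595, SE 0.11), and KO 2 by 1.73-fold, -0.79 (adjusted p 7.4e-06, SE 0.11), by limma. CRISPR Control was not called against WT, -0.08 (adjusted p 0.552, SE 0.11), nor KO 2 against KO 1, -0.23 (adjusted p 0.115, SE 0.11), by the same limma fit. PFKFB4 was the 1 member with the same call against WT and against CRISPR Control in both clones and none between the competent lines, and against WT alone the average of the clones was -0.68. Its exons share sequence positions with UCN2, which read a mean of 13.6 in WT and 44.4 in CRISPR Control. The UCN2 means were 8.71 in KO 1 and 7.82 in KO 2, and the part of UCN2 reads in the PFKFB4 values was not tested.

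PFKFB3 (chromosome 10, 6144934 to 6254644, plus strand), whose kinase activity far exceeds its phosphatase activity, read 1255, 1279 and 1292 in WT, 1141, 1056 and 1188 in the CRISPR Control line, 1309, 1087 and 1168 in KO 1, then 1233, 1339 and 1527 in KO 2. Its lines overlapped in most pairs. The only call was KO 2 above CRISPR Control, 0.27 (adjusted p 0.0124, SE 0.09) by limma, and without KO 2 replicate 3 it was 0.19 with an adjusted p of 0.0873 (range 0.00091 to 0.0873 over 20 alternative settings by limma, edgeR or DESeq2). KO 2 against KO 1 was 0.20 (adjusted p 0.089, SE 0.09) by limma, and this became a call in 3 of 20 alternative settings, at 0.27 to 0.30. Among these were the removal of KO 1 replicate 1 (0.27) or KO 2 replicate 1 (0.27). Adjusted p values were 0.0122 to 0.364 over the 20 settings by limma, edgeR or DESeq2.

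PGK1, which makes the first ATP of the pathway, and LDHA, which makes lactate, were the most abundant members per kilobase of exon. PGK1 (chromosome X, 77910739 to 78129295, plus strand) read 28031, 25001 and 26298 in WT, 18729, 20667 and 20909.9 in the CRISPR Control line, 29791, 31811 and 29982 in KO 1, then 27201, 28018 and 28289 in KO 2. The CRISPR Control libraries were the 3 lowest, and WT overlapped KO 2. CRISPR Control was 1.32-fold below WT, -0.40 (adjusted p 0.000113, SE 0.07) by limma. KO 1 lay above WT by 0.21 (adjusted p 0.0266, SE 0.07) by limma. This call was lost in 5 of 20 alternative settings. Among these were the removal of WT replicate 2 (0.17), WT replicate 3 (0.20), KO 1 replicate 2 (0.18) or KO 1 replicate 3 (0.22). Adjusted p values were 0.00652 to 0.119 over the 20 settings by limma, edgeR or DESeq2. KO 2 was not called against WT, 0.08 (adjusted p 0.378, SE 0.07). The deficient lines averaged 0.34 (adjusted p 7.3e-06) above the competent lines by limma, but only 0.14 above WT alone (adjusted p 0.0606, range 8.35e-12 to 0.0606 over 21 alternative settings by limma, edgeR or DESeq2).

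LDHA (chromosome 11, 18394560 to 18408425, plus strand) read 44125, 41277 and 40783 in WT, 34007, 38701 and 38580.3 in the CRISPR Control line, 43189, 47280.4 and 42174 in KO 1, then 38233, 36821 and 38947 in KO 2. KO 1 and WT overlapped, and so did KO 2 and CRISPR Control. CRISPR Control was below WT by -0.18 (adjusted p 0.0481, SE 0.08) and KO 2 below KO 1 by -0.22 (adjusted p 0.029, SE 0.08), both near the threshold of the limma fit. The first of these was lost in 13 of 20 alternative settings, among them the removal of any 1 library of WT or of either clone or of CRISPR Control replicate 1, with log2 fold changes of -0.20 to -0.12 and adjusted p values of 0.0156 to 0.163 over 20 alternative settings by limma, edgeR or DESeq2. The second was lost in 6 of 20 alternative settings, at -0.23 to -0.11. Among these were the removal of KO 1 replicate 1 (-0.23), KO 1 replicate 2 (-0.17), KO 2 replicate 1 (-0.22) or KO 2 replicate 2 (-0.19). Its adjusted p values were 0.0107 to 0.191 over the 20 settings by limma, edgeR or DESeq2. Neither clone was called against WT, with intervals of -0.09 to 0.23 for KO 1 and -0.30 to 0.01 for KO 2. LDHA has 6 named pseudogenes, PGK1 has 2 and HK2 has 1, and reads could have been split between them and the genes. Exons of PGK1 also share positions with ATP7A and C4orf46P2 on the same strand, and the effect on its values was not tested.

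The promoters of 4 of these enzymes are given to show where the HIF motif lies. The core of the HIF response element is ACGTG or GCGTG, in capitals below on either strand (CACGT and CACGC are the reverse complements). CACGTG reads as ACGTG on both strands. The stretches lie upstream of the start site given by RefSeq (GRCh38.p14), leave out bases that the annotation places in an exon of any gene, and run 5′ to 3′ on the strand of the gene. LDHA and PGK1 are shown as the abundant enzymes, HK2 as the one that differed most between the clones, and PFKFB4 as the one that was lower in both. RefSeq lists 2 start sites each for LDHA and HK2, of which the upstream one is shown. The other window of LDHA held no ACGTG and 1 GCGTG, and that of HK2 held 4 ACGTG and 2 GCGTG, each strand counted.
LDHA promoter, chr11:18394313-18394559, plus strand: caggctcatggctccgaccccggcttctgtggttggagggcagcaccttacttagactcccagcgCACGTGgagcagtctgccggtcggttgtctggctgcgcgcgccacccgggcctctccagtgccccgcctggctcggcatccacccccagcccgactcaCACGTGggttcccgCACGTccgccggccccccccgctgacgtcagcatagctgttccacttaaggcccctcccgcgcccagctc
PGK1 promoter, chrX:78103998-78104247, plus strand: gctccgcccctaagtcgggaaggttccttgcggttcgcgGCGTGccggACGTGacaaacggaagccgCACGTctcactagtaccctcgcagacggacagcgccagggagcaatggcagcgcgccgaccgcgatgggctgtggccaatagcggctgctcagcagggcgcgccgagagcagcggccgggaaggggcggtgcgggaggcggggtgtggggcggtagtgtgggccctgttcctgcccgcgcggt
HK2 promoter, chr2:74833988-74834126, plus strand: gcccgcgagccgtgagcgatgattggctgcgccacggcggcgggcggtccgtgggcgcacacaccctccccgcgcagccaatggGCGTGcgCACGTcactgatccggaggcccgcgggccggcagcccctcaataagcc
PFKFB4 promoter, chr3:48556924-48556982, minus strand: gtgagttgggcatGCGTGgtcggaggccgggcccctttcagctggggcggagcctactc
RefSeq promoters of 8 of the 10 members were examined, 12 start sites in all. NDRG1 and VEGFA were not among the 8, which does not mean that RefSeq lists no promoter for them. The counts of members therefore leave both genes out. Within 250 bases upstream, 6 of the 12 held ACGTG and 10 held ACGTG or GCGTG, while 18.5% and 43.2% of 35116 promoters of all genes did. By gene, 5 of 8 members held ACGTG, 6 held GCGTG and 7 held either. Of all promoters 32.2% held GCGTG. No share by gene was computed for all genes, and LDHA, HK2, HIF1A and PFKFB3 had 2 windows each. The members were chosen as genes of glycolysis and the response to low oxygen, so these counts do not test the motif. SLC2A1 held neither in its window. A match is a description of the letters and not a bound site.

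HIF1A, the alpha subunit of the factor, was lower in CRISPR Control and not called against WT in either clone. HIF1A (chromosome 14, 61695513 to 61748259, plus strand) read 3744, 4448 and 4154 in WT, 3539.6, 3252 and 3263 in the CRISPR Control line, 3914, 3802 and 3906 in KO 1, then 4634, 4046 and 3796 in KO 2. The CRISPR Control libraries were the lowest 3, and the other lines overlapped. Against WT the log2 fold change was -0.29 (adjusted p 0.00506, SE 0.08) in CRISPR Control, -0.08 (adjusted p 0.455, SE 0.08) in KO 1 and 0.01 (adjusted p 0.899, SE 0.08) in KO 2 by limma, and the intervals for the clones were -0.25 to 0.09 and -0.16 to 0.18. KO 1 was called above CRISPR Control, 0.21 (adjusted p 0.0305, SE 0.08) by limma, and this call was lost in 6 of 20 alternative settings. Among these were the removal of CRISPR Control replicate 2 (0.19) or 3 (0.19) or of any KO 1 library (0.20, 0.22 and 0.20). Adjusted p values were 0.0165 to 0.0774 over the 20 settings by limma, edgeR or DESeq2. The difference between deficient and competent lines, 0.11 (adjusted p 0.0941, SE 0.06), was not a call, and the clones averaged -0.04 against WT alone and 0.26 against CRISPR Control alone, the second of these a call (adjusted p 0.00307 by limma). It also became a call with equal library totals (0.17), without WT replicate 2 (0.14) or KO 2 replicate 3 (0.14), with adjusted p values of 0.00307 to 0.703 over 21 alternative settings by limma, edgeR or DESeq2. Antisense transcripts HIF1A-AS1 and HIF1A-AS3 overlap its exons, and the strand setting of the counting was not stated. A further gene model, ENSG00000258964, overlaps them on the same strand.

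NDRG1, a cytoplasmic stress protein long used as a marker of hypoxia, had the widest range of any member. NDRG1 (chromosome 8, 133237175 to 133302022, minus strand) read 2369, 2052 and 2488 in WT, 509.6, 452 and 522 in the CRISPR Control line, 4099, 4710.0 and 4399 in KO 1, then 5322, 5789 and 5589 in KO 2. The 4 lines did not overlap, in the order CRISPR Control, WT, KO 1, KO 2, and each neighbouring pair differed. Against WT, KO 1 was 1.91-fold higher, 0.94 (adjusted p 6.64e-08, SE 0.08), KO 2 was 2.42-fold higher, 1.28 (adjusted p 3.72e-10, SE 0.08), and CRISPR Control was 4.64-fold lower, -2.22 (adjusted p 1.09e-13, SE 0.08), by limma. KO 2 exceeded KO 1 by 0.34 (adjusted p 0.0037, SE 0.08) and CRISPR Control by 11.3-fold. The fall in the control line was thus larger on the log2 scale than the rise in either clone. The clones averaged 1.11 above WT alone, 3.32 above CRISPR Control alone and 2.21 above both on the log2 scale.

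Among 11641 genes with a mean of at least 100, the 5 whose pattern was most like that of NDRG1 over the 12 libraries were SRPX2 (Pearson r 0.997), MAN2B1 (0.996), BCAM (0.996), BFSP1 (0.995) and GALNT2 (0.995). MAN2B1 is a lysosomal mannosidase, BCAM a laminin receptor and GALNT2 a Golgi enzyme of O-glycosylation. SRPX2 had line means of 291 in WT, 66.6 in the control line, 579 in KO 1, then 738 in KO 2. The libraries fall into 4 lines, so r here reflects mostly the 4 line means.

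The secreted product VEGFA had an order of the lines other than that of NDRG1. VEGFA, the vascular growth factor (chromosome 6, 43770184 to 43786487, plus strand), read 883, 847 and 864 in WT, 1184, 1012 and 1070.3 in the CRISPR Control line, 711, 662 and 663 in KO 1, then 855, 869.8 and 939 in KO 2. CRISPR Control was the highest line and KO 1 the lowest, and neither overlapped another, while KO 2 overlapped WT. Against WT the log2 fold change was 0.33 (adjusted p 0.00252, SE 0.08) in CRISPR Control, -0.35 (adjusted p 0.00262, SE 0.08) in KO 1 and 0.04 (adjusted p 0.723, SE 0.08) in KO 2, by limma. KO 2 exceeded KO 1 by 0.39 (adjusted p 0.00103, SE 0.08) in the same limma fit. The deficient lines averaged -0.32 (adjusted p 8.55e-05) against the competent lines in that fit, and -0.16 against WT alone (adjusted p 0.077, range 6.47e-07 to 0.077 over 21 alternative settings by limma, edgeR or DESeq2). VEGFA and NDRG1, both classed as HIF targets, therefore had opposite signs in CRISPR Control and in KO 1.

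CA9, a membrane carbonic anhydrase that is nearly silent in normal oxygen in many lines (chromosome 9, 35673928 to 35681159, plus strand), was close to the limit of detection. Its reads, before scaling, numbered 0, 1 and 1 in WT, 0, 1 and 0 in CRISPR Control, 8, 5 and 6 in KO 1 and 5, 12 and 4 in KO 2. Every deficient library had more reads than every competent library, 40 reads against 3 in all, a ratio of 13.1 after depth (exact 95% interval 4.17 to 66.2, which covers counting error only). A count of 0 allows up to 3 reads in a library. With no filter on low values the limma log2 fold change of deficient against competent lines was 2.31 (adjusted p 0.000101), and 2.25 in KO 1 and 2.11 in KO 2 against WT (adjusted p 0.00875 and 0.008). Exons of ARHGEF39 overlap CA9 on the other strand, and ARHGEF39 had means of 1547 in WT, 1176 in the control line, 1288 in KO 1, then 676 in KO 2, and the part of reads from that gene in the CA9 values was not tested.

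Per kilobase of annotated exon the members spanned a wide range of levels. In WT, LDHA stood at 6980.0 normalised counts per kilobase and PGK1 at 4864, followed by HIF1A at 799, SLC2A1 at 312, PFKFB3 at 209 and NDRG1 at 192. HK2, PFKFB4 and VEGFA stood at 126, 72.3 and 59.9. In KO 2, NDRG1 stood at 464 per kilobase, above SLC2A1 at 310.3. The length is that of all annotated exons of a gene, 12002 bases for NDRG1 and 6614 for SLC2A1. It may exceed the length of the transcript expressed, so these ranks depend on the annotation. Before division by length, NDRG1 lay above SLC2A1 in WT too, with means of 2303 and 2067. Between the lowest and the highest line mean LDHA varied 1.19-fold and PGK1 1.52-fold.

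The sensing arm was read from 16 genes, of which 14 were tested. They encode HIF subunits, hydroxylases, the VHL complex, CITED2 and the coactivators CREBBP (CBP) and EP300 (p300). Against WT, KO 1 had 1 higher and 1 lower of these, KO 2 had 4 higher and 1 lower, and CRISPR Control had 2 higher and 6 lower. CITED2, CREBBP and EP300 were among the 6 lower in CRISPR Control, and CITED2 was among the 4 higher in KO 2. As shares of the 14 these were 7.14% higher and 7.14% lower in KO 1, 28.6% higher and 7.14% lower in KO 2 and 14.3% higher and 42.9% lower in CRISPR Control, beside 18.0% and 17.5% of all tested genes in KO 1, 27.1% and 27.9% in KO 2 and 27.2% and 26.3% in CRISPR Control. EPAS1, the HIF-2 alpha subunit, read 3894, 3578 and 4050.1 in WT, 303, 206 and 268 in the CRISPR Control line, 4373, 4504 and 4572 in KO 1, then 7735, 7709.6 and 7353 in KO 2. CRISPR Control held this transcript at 6.75% of WT, a log2 fold change of -3.90 (adjusted p 3.13e-16, SE 0.10) by limma. KO 2 was 1.98-fold above WT, 0.99 (adjusted p 1.56e-07, SE 0.10), and KO 1 was not called, 0.22 (adjusted p 0.0938, SE 0.10), in the same limma fit. The average difference of 2.56 between deficient and competent lines was 0.61 against WT alone and 4.51 against CRISPR Control alone.

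CITED2, which competes with HIF for the coactivators CBP and p300, had line means of 5383 ± 158 in WT, 2079.8 ± 212 in the control line, 6139 ± 228 in KO 1, then 6146 ± 433 in KO 2 (SD, n = 3). It was lower in CRISPR Control than in WT, -1.38 (adjusted p 4.1e-11, SE 0.08) by limma. KO 2 was called higher than WT, and that call was lost in 9 of 20 alternative settings (0.15 to 0.21). KO 1 was not called against WT (adjusted p 0.0676 by limma) and gained a call in 3 of 20 (0.19). VHL, the ligase subunit that binds hydroxylated HIF, moved the other way. It read 1729, 1898 and 1916 in WT, 2767, 3014 and 2811 in the CRISPR Control line, 1683, 1510.0 and 1528 in KO 1, then 1244, 1265 and 1351 in KO 2, with log2 fold changes against WT of 0.63 (adjusted p 1.07e-06, SE 0.07) in CRISPR Control, -0.23 (adjusted p 0.0212, SE 0.07) in KO 1 and -0.52 (adjusted p 9.7e-06, SE 0.07) in KO 2, by limma. ELOC, a subunit of the same complex, was 0.57 (adjusted p 4.74e-05, SE 0.09) in CRISPR Control against WT by limma, and the clones averaged -0.04 against WT alone. In CRISPR Control, then, EPAS1 and CITED2 were low and VHL and ELOC high.

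**Figure D3:**
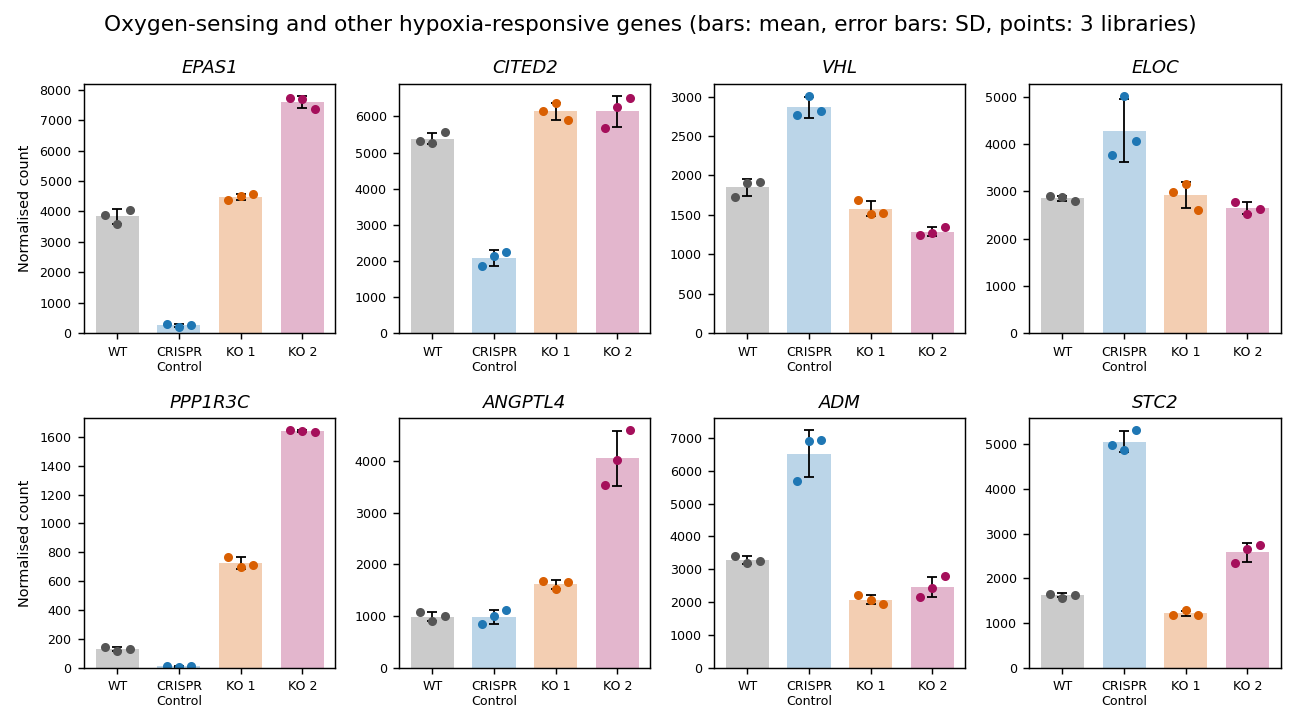
Normalised counts (vertical axes, linear, from 0) of EPAS1, CITED2, VHL, ELOC, PPP1R3C, ANGPTL4, ADM and STC2 in the 4 lines (horizontal axes). Bars are means of 3 libraries, error bars are SD and points are single libraries. EPAS1 falls to 259 in CRISPR Control, where ADM and STC2 reach 6515 and 5056.

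A further 27 genes commonly induced by hypoxia were all tested. Against WT, 14 were higher and 4 lower in KO 1, 12 higher and 4 lower in KO 2, and 11 higher and 6 lower in CRISPR Control. Of the 27 genes these calls were 51.9% higher and 14.8% lower in KO 1, 44.4% higher and 14.8% lower in KO 2 and 40.7% higher and 22.2% lower in CRISPR Control, where the shares of higher and lower calls were 18.0% and 17.5% of all tested genes in KO 1, 27.1% and 27.9% in KO 2 and 27.2% and 26.3% in CRISPR Control. The list had medians of 0.25, 0.23 and 0.10 on the log2 scale beside medians of all tested genes of 0.003, -0.008 and 0.01. PPP1R3C, a glycogen-targeting phosphatase subunit, read 141, 115 and 131 in WT, 10.4, 8.30 and 11.0 in the CRISPR Control line, 770.3, 695 and 708 in KO 1, then 1645, 1638 and 1631 in KO 2. Its 4 lines did not overlap, and the log2 fold change against WT was 2.48 (adjusted p 2.37e-11, SE 0.13) in KO 1, 3.66 (adjusted p 6.05e-14, SE 0.13) in KO 2 and -3.58 (adjusted p 3.92e-14, SE 0.13) in CRISPR Control, by limma. ANGPTL4, a secreted inhibitor of lipoprotein lipase, was 1.64-fold above WT in KO 1 and 4.07-fold in KO 2, 0.71 (adjusted p 3.19e-05, SE 0.11) and 2.03 (adjusted p 1.16e-11, SE 0.11), and was not called in CRISPR Control, -0.01 (adjusted p 0.938, SE 0.11), by limma.

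ADM and STC2, the lowest called genes of that list, were highest in CRISPR Control. ADM, the gene of the vasodilator adrenomedullin, read 3406, 3198 and 3246 in WT, 5687, 6918 and 6938 in the CRISPR Control line, 2210.4, 2069 and 1951 in KO 1, then 2168, 2439 and 2779.6 in KO 2. Against WT it was 0.98 (adjusted p 5.31e-08, SE 0.09) in CRISPR Control, -0.66 (adjusted p 1.69e-05, SE 0.09) in KO 1 and -0.42 (adjusted p 0.000796, SE 0.09) in KO 2 by limma, so both clones were lower than both competent lines. STC2, a secreted glycoprotein, read 1655, 1568 and 1637 in WT, 4993, 4862 and 5312 in the CRISPR Control line, 1183, 1284 and 1178 in KO 1, then 2351, 2656 and 2756 in KO 2. It was lower than WT in KO 1, -0.42 (adjusted p 0.000252, SE 0.07), and higher in KO 2, 0.67 (adjusted p 4.3e-07, SE 0.07), by limma. The difference between deficient and competent lines, -0.69, was 0.13 against WT alone.

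The clones were called in opposite directions against WT, and called against each other, in 3 further genes of the lists, AK4, CA12 and ENO2, named here for that pattern after their values were seen. AK4, a mitochondrial adenylate kinase, read 505, 584 and 513 in WT, 57.0, 46.3 and 50.5 in the CRISPR Control line, 221, 270.0 and 195 in KO 1, then 693, 657 and 691 in KO 2. Its lines stood in the order of HK2, without overlap, at -1.23 (adjusted p 4.62e-07, SE 0.13) in KO 1, 0.35 (adjusted p 0.0273, SE 0.13) in KO 2 and -3.36 (adjusted p 1.11e-13, SE 0.13) in CRISPR Control against WT by limma. The call in KO 2 was lost without WT replicate 1 or 3 or KO 2 replicate 1 or 3 (0.31 to 0.34), with adjusted p values of 0.00313 to 0.092 over 20 alternative settings by limma, edgeR or DESeq2. The average of the clones was 1.24 against both competent lines and turned to -0.44 against WT alone (adjusted p 0.00302 by limma, range 2.83e-33 to 0.00302 over 21 alternative settings by limma, edgeR or DESeq2). CA12, a membrane carbonic anhydrase like CA9, was 0.57 (adjusted p 0.0213, SE 0.18) in KO 1, -0.45 (adjusted p 0.0442, SE 0.18) in KO 2 and -1.41 (adjusted p 3.34e-06, SE 0.18) in CRISPR Control against WT by limma. Its call in KO 2 was lost in 10 of 20 alternative settings and that in KO 1 in 4, with log2 fold changes of -0.56 to -0.33 and 0.46 to 0.69 over the settings. ENO2, the neuronal-type enolase, was -0.26 (adjusted p 0.011, SE 0.08) in KO 1 and 0.30 (adjusted p 0.00299, SE 0.08) in KO 2 against WT by limma, and the KO 1 call was lost without KO 1 replicate 3 at -0.24 (adjusted p 0.00095 to 0.0515 over 20 alternative settings by limma, edgeR or DESeq2).

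The other enzymes of glycolysis changed by less than 1 on the log2 scale in both clones, and PFKL by more in CRISPR Control. Of 17 genes 16 were tested, and against WT KO 1 had 0 higher and 2 lower, KO 2 had 4 higher and 7 lower, and CRISPR Control had 2 higher and 8 lower, with ranges of -0.26 to 0.23, -0.35 to 0.42 and -1.53 to 0.66 on the log2 scale. The calls made up 0% higher and 12.5% lower in KO 1, 25% higher and 43.8% lower in KO 2 and 12.5% higher and 50% lower in CRISPR Control, and the background shares of higher and lower genes were 18.0% and 17.5% of all tested genes in KO 1, 27.1% and 27.9% in KO 2 and 27.2% and 26.3% in CRISPR Control. PFKL, the liver-type phosphofructokinase, read 7697, 6810.3 and 6970.4 in WT, 2333, 2278 and 2831 in the CRISPR Control line, 8038, 7390.2 and 7309 in KO 1, then 5432, 6071 and 6660.0 in KO 2. CRISPR Control stood 2.89-fold below WT, -1.53 (adjusted p 6.24e-11, SE 0.09) by limma, and the clones averaged -0.08 against WT alone. KO 2 was called lower than WT, a call lost in 5 of 20 alternative settings (-0.25 to -0.15). KO 1 was not called against WT (adjusted p 0.511 by limma). HK1, the constitutive hexokinase, was 0.35 (adjusted p 0.000236, SE 0.07) in KO 2 and 0.13 (adjusted p 0.148, SE 0.07) in KO 1 against WT by limma. LDHB, which favours the return of lactate to pyruvate, was 0.41 (adjusted p 0.0112, SE 0.13) in CRISPR Control and was not called in KO 1, 0.03 (adjusted p 0.884, SE 0.13), or KO 2, -0.24 (adjusted p 0.115, SE 0.13), against WT by limma. ALDOA, an aldolase, was -0.33 (adjusted p 0.0173, SE 0.11) between deficient and competent lines by limma and -0.16 against WT alone, and its value is uncertain because a second gene model shares its exons.

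Among transporters of glucose and lactate, SLC2A12 and SLC2A10 were higher in both clones than in WT, and SLC2A3 was lower. Of 11 genes 10 were tested, with 4 higher and 1 lower in KO 1, 2 higher and 4 lower in KO 2 and 3 higher and 7 lower in CRISPR Control, against WT. The same calls in percent were 40% higher and 10% lower in KO 1, 20% higher and 40% lower in KO 2 and 30% higher and 70% lower in CRISPR Control, with higher and lower shares of 18.0% and 17.5% of all tested genes in KO 1, 27.1% and 27.9% in KO 2 and 27.2% and 26.3% in CRISPR Control. SLC2A12, a further glucose transporter, had means of 300.3 ± 18.0 in WT, 174 ± 13.9 in the control line, 826 ± 28.6 in KO 1, then 1256 ± 51.1 in KO 2 (SD, n = 3). It was 1.46 (adjusted p 5.59e-10, SE 0.09) in KO 1 and 2.06 (adjusted p 1.85e-12, SE 0.09) in KO 2 against WT by limma, and SLC2A10, a low-abundance relative, was 1.42 (adjusted p 6.38e-05, SE 0.22) and 1.42 (adjusted p 2.86e-05, SE 0.22). SLC2A3, a high-affinity glucose transporter, had a mean under 100 and was singled out after its values were seen. It read 57.7, 74.5 and 73.3 in WT, 174, 155 and 154 in the CRISPR Control line, 5.40, 0.00 and 3.53 in KO 1, then 14.9, 30.7 and 17.2 in KO 2. The lines did not overlap, and against WT it was -4.49 (adjusted p 4.69e-07, SE 0.47) in KO 1, -1.72 (adjusted p 0.00457, SE 0.47) in KO 2 and 1.23 (adjusted p 0.0352, SE 0.47) in CRISPR Control by limma. Its reads in KO 1 numbered 5, 0 and 4, and the fold there depended on the pseudocount, -2.61 with a pseudocount of 10 in place of 1, within a range of -5.02 to -2.61 over the alternatives. The call in CRISPR Control was lost with no filter on low values and without any 1 library of WT or CRISPR Control (1.11 to 1.29), with adjusted p values of 2.86e-07 to 0.107 over 20 alternative settings by limma, edgeR or DESeq2. SLC2A14 is a close copy of SLC2A3, and reads could have been split between them. The lactate transporters SLC16A1 and SLC16A3 were lower in KO 2, -0.65 (adjusted p 1.43e-07, SE 0.07) and -0.62 (adjusted p 4e-06, SE 0.08) against WT by limma. In KO 1 they were 0.00 (adjusted p 0.968, SE 0.07) and -0.18 (adjusted p 0.0909, SE 0.08) against WT in that fit. KO 2 lay below KO 1 in both, by -0.66 (adjusted p 3.22e-07, SE 0.07) for SLC16A1 and -0.44 (adjusted p 0.000375, SE 0.08) for SLC16A3 in the same limma fit. CRISPR Control was lower than WT in both as well, -0.26 (adjusted p 0.00324, SE 0.07) and -0.43 (adjusted p 0.000267, SE 0.08) by limma.

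Entry of pyruvate into mitochondria was read from 13 genes, all tested. Against WT, KO 1 had 2 higher and 4 lower, KO 2 had 3 higher and 4 lower and CRISPR Control had 3 higher and 3 lower. In percent of the 13 they were 15.4% higher and 30.8% lower in KO 1, 23.1% higher and 30.8% lower in KO 2 and 23.1% higher and 23.1% lower in CRISPR Control, against 18.0% and 17.5% of all tested genes in KO 1, 27.1% and 27.9% in KO 2 and 27.2% and 26.3% in CRISPR Control, so the shares in KO 2 and CRISPR Control lay near the background. DLAT and PDHA1, subunits of pyruvate dehydrogenase, were lower in both clones. DLAT was -0.21 (adjusted p 0.0109, SE 0.06) in KO 1 and -0.57 (adjusted p 3.22e-07, SE 0.06) in KO 2, and PDHA1 was -0.25 (adjusted p 0.0176, SE 0.08) and -0.34 (adjusted p 0.00128, SE 0.08), against WT by limma. PDK1, the kinase that switches this complex off, read 384, 420.0 and 405 in WT, 192, 181 and 192 in the CRISPR Control line, 457, 492 and 474 in KO 1, then 591, 495 and 449 in KO 2. It was lower in CRISPR Control, -1.09 (adjusted p 9.12e-08, SE 0.11), higher in KO 2, 0.34 (adjusted p 0.0129, SE 0.11), and not called in KO 1, 0.24 (adjusted p 0.096, SE 0.11), against WT by limma. PDK3, a kinase of the same family named after its values were seen, went the other way, 0.91 (adjusted p 0.000355, SE 0.18) in CRISPR Control, -1.10 (adjusted p 0.000104, SE 0.18) in KO 1 and -1.07 (adjusted p 6.61e-05, SE 0.18) in KO 2 by limma. Its means were 97.8 ± 8.80 in WT, 187 ± 32.5 in the control line, 45.2 ± 6.15 in KO 1, then 46.1 ± 5.09 in KO 2 (SD, n = 3). PDK4, also of that family, had 6, 22 and 5 reads in WT and 83, 41 and 66 in the CRISPR Control line. It had 0 in each KO 1 library and 2, 8 and 1 in KO 2. Against WT it was called higher in CRISPR Control and lower in both clones. Its mean of 19.5 over the 12 libraries passed the filter only through CRISPR Control, so these calls add no support to those of PDK3. KO 2 overlapped WT, with a highest value of 7.01 against a lowest WT value of 4.76. MPC1, a subunit of the mitochondrial pyruvate carrier, was -0.99 (adjusted p 4.33e-08, SE 0.09) in CRISPR Control, 0.57 (adjusted p 3.62e-05, SE 0.09) in KO 2 and -0.12 (adjusted p 0.321, SE 0.09) in KO 1 by limma.

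**Figure D4:**
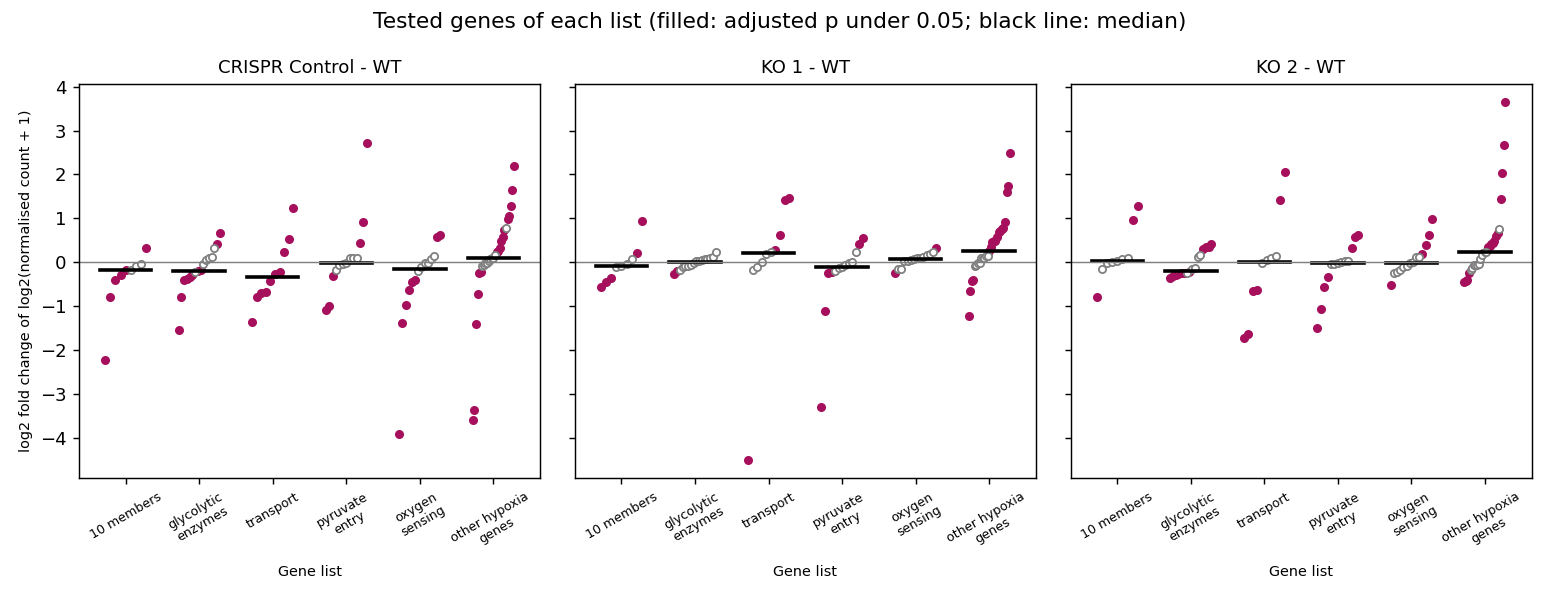
Log2 fold changes against WT (vertical axis) of the tested genes of each list (horizontal axis) in CRISPR Control, KO 1 and KO 2. Filled points have an adjusted p under 0.05, open points do not, and black lines are medians. The list of other hypoxia genes reaches 3.66 in KO 2 and falls to -3.58 in CRISPR Control, while the glycolytic enzymes of KO 1 stay within -0.26 to 0.23. PDK4 had no reads in KO 1, so the height of its point there depends on the pseudocount.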

How the data were processed

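The 12 libraries, 3 per line, were grouped by their sample titles. The authors trimmed reads with Cutadapt and aligned them to GRCh38 with STAR. Gene counts came from featureCounts, and the deposited values are those counts over DESeq2 size factors, a signal scaled across libraries. The annotation and strand setting of the counting were not given in the sources used here. A shift of most genes in 1 direction would be hidden by that scaling.

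The table held 63086 genes and 1 blank line, left out, and 4 columns of line means, not used. Dividing by the smallest step of each library returned whole reads for 100% of positive values within 0.01 reads. Tests used limma 3.58.1 in R 4.3.3 on log2(value + 1), with line means fitted to all 12 libraries, a trend, and Benjamini-Hochberg adjustment over 15987 genes (99.9% of reads, mean of at least 10). Fold changes on that scale understate the change of low genes. A check on simulated data preceded the fit. The alternatives were edgeR 4.0.16 and DESeq2 1.42.0 on recovered reads, other pseudocounts, filters and scalings, the 2 lines alone, a replicate block and each library left out. The sources call the libraries biological replicates and do not say whether cultures were separate, so p-values measure the spread between these libraries, which may be technical. No pair of replicates was a repeated deposit (chi-square per gene 4.61 to 29.7). The members, the 5 pathway lists and the marker lists were chosen with earlier results of these data known. The genes named from each list were the 2 highest and 2 lowest called changes of deficient against competent lines with a mean of at least 100, and the genes most like the member of widest range were the 5 with the highest Pearson r over the libraries. Coordinates are of GENCODE v44, and 97.6% of gene identifiers matched it with the version.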

Additional observations from a re-analysis of the deposited data

Results flagged for a closer look

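HK2 was flagged because the clones differed from WT in opposite directions. It was -0.45 in KO 1 (adjusted p 0.000699) and 0.96 in KO 2 (adjusted p 4.31e-08), and the difference of 1.40 between the clones was itself called by limma (adjusted p 5.9e-10).

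STC2, a gene of the hypoxia list, was flagged for the same reason. It was -0.42 in KO 1 (adjusted p 0.000252) and 0.67 in KO 2 (adjusted p 4.3e-07) against WT, with a difference of 1.09 between the clones by limma (adjusted p 1.69e-09).

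AK4, CA12 and ENO2, also of the lists, met the same criterion in limma. AK4 was -1.23 in KO 1 (adjusted p 4.62e-07) and 0.35 in KO 2 (adjusted p 0.0273), with a difference of 1.58 between the clones (adjusted p 1.65e-08). CA12 was 0.57 in KO 1 (adjusted p 0.0213) and -0.45 in KO 2 (adjusted p 0.0442), with a difference of -1.02 (adjusted p 0.000222). ENO2 was -0.26 in KO 1 (adjusted p 0.011) and 0.30 in KO 2 (adjusted p 0.00299), with a difference of 0.56 (adjusted p 1.14e-05).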

How the results depend on the processing

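The comparisons rest on 4 lines, and depth limited the low genes. CA9, PFKFB1, SLC16A7, HIF3A and EGLN3 had means under 10 and were not tested, and SLC2A3 and PDK4 had 0 to 5 reads per library in KO 1. On recovered reads edgeR called 10552 genes and DESeq2 10518 between deficient and competent lines, beside 10535 by limma, and both stayed within 1.04 times the limma count in every comparison. Equal library totals moved the median of all genes by up to 0.11 (KO 2 against CRISPR Control), and under them VEGFA there was -0.18 (adjusted p 0.0711 by limma, range 0.00149 to 0.0711 over 20 alternatives). Against WT alone, an alternative chosen after seeing the data, the called members between deficient and competent lines fell from 5 to 3, the glycolytic enzymes from 12 to 4 and the oxygen-sensing genes from 8 to 4. With no filter, 1 glycolytic enzyme and 1 oxygen-sensing gene were called in KO 1 against WT in place of 2 each, and 3 pyruvate genes in place of 5 between the clones. The 2 lines alone gave 8 transport genes and 4 oxygen-sensing genes for KO 1 against WT, in place of 5 and 2, and 8 oxygen-sensing genes for KO 2 in place of 5.

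Leaving out 1 library in turn gave counts of called genes against WT of 0 to 2 glycolytic enzymes and 0 to 4 oxygen-sensing genes in KO 1, 6 to 11 glycolytic enzymes and 3 to 6 oxygen-sensing genes in KO 2 and 6 to 10 transport genes in CRISPR Control, and of 3 to 5 pyruvate genes between the clones. VHL in KO 1 lost its call at -0.21, -0.20, -0.20 and -0.21 without WT replicates 2 and 3 and KO 1 replicates 2 and 3. PDHA1 in KO 1 lost it at -0.20, -0.24 and -0.23 without WT replicate 1 and KO 1 replicates 2 and 3. PDK1 in KO 2 lost it at 0.23 without KO 2 replicate 1 and LDHB in CRISPR Control at 0.25 without its replicate 2. ALDOA lost it at -0.26, -0.27 and -0.24 without CRISPR Control replicate 3, KO 1 replicate 2 and KO 2 replicate 1. EPAS1 in KO 1 gained a call at 0.22 without CRISPR Control replicate 1 or 2. The cause was not tested.

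AK4 turned to -0.44 between deficient and competent lines against WT alone (adjusted p 0.00302 by limma). Signs turned in 47 other values of single genes, 22 of them of SLC2A1, with sizes of at most 0.13 and no adjusted p under 0.109. SLC2A1 turned to 0.085 (KO 2 against WT), 0.0023 (KO 1 against CRISPR Control) and 0.044 (deficient against competent) with equal library totals, to 0.0012 with DESeq2 (KO 2 against WT) and to 0.00939 against CRISPR Control alone. Against WT alone PFKFB3 turned to -0.0063, LDHA to -0.037, HIF1A to -0.035, PFKL to -0.081 and STC2 to 0.13, and against CRISPR Control alone SLC16A3 turned to 0.025. SLC16A1 in KO 1 against WT turned to -0.0031 with equal library totals and to -0.0038 with edgeR. With 1 library left out in turn, other log2 fold changes crossed 0 within these ranges. For KO 2 against WT they were SLC2A1 -0.063 to 0.024, VEGFA -0.0038 to 0.064, HIF1A -0.067 to 0.077 and ALDOA -0.27 to 0.019. For CRISPR Control against WT they were SLC2A1 -0.10 to 0.046, PDHA1 -0.087 to 0.013 and ANGPTL4 -0.10 to 0.092. For KO 1 against CRISPR Control they were SLC2A1 -0.094 to 0.048 and PFKFB3 -0.00023 to 0.13. For KO 2 against CRISPR Control they were SLC2A1 -0.055 to 0.086 and LDHA -0.024 to 0.069. For KO 2 against KO 1 it was SLC2A1 -0.0090 to 0.065. For deficient against competent it was SLC2A1 -0.052 to 0.019. For KO 1 against WT they were LDHB -0.027 to 0.093, SLC16A1 -0.026 to 0.042 and ELOC -0.031 to 0.10.

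With the replicate number as a block, LDHA in CRISPR Control against WT was -0.18 (adjusted p 0.0702 by limma, range 0.0156 to 0.163 over 20 alternatives), and no other call of a named gene changed. Of 18 pairs of same-numbered libraries 2 had a correlation of deviations above 0.1 (range -0.129 to 0.160). Both were of CRISPR Control with KO 2, 0.160 in replicate 1 and 0.145 in replicate 3. Pairs with different numbers were not compared, so whether the numbers pair the samples was not tested. Other counts of called genes stayed within 1.5 times under every alternative.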
